A study of Arabidopsis thaliana with 12 samples.

Results

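The nuclear genes of the photosynthetic apparatus were followed in roots, an organ that is grown for water and nutrient uptake and carries little chlorophyll. The set was a list of 43 Arabidopsis thaliana loci, made up of 15 antenna genes, 9 genes of Rubisco and the Calvin cycle, 9 of photosystem I, 5 of photosystem II and 5 of electron transport. All 43 were among the 21200 genes of the count table, and all 43 were among the 18867 genes kept for testing. RNA was sequenced from whole roots of wild-type Columbia seedlings in 12 libraries, 2 for each of 6 groups, each library being a pool of at least 50 root systems that the labels call a biological replicate. The series asked how Azospirillum brasilense, a root-associated soil bacterium, changes root growth with and without its own auxin.

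One inoculated group received the ipdc mutant of the bacterium, named for its gene of indole-3-pyruvate decarboxylase, through which bacteria make auxin. A second inoculated group received the wild-type strain Az39, and the uninoculated group received 0.9% saline. Each seedling got 2 µL on day 4 after planting, bacteria being set to OD595 = 1, and grew on vertical nutrient agar with sucrose under a cycle of 16 h light and 8 h dark. Roots were harvested 7 d or 24 h after treatment, so time after treatment and age of the seedling cannot be told apart. In the text the groups are called ipdc, Az39 and saline roots.

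Photosynthesis takes up light through antenna proteins of the LHCA family around photosystem I and of the LHCB family around photosystem II, which are encoded in the nucleus and imported into the chloroplast. Electrons pass from photosystem II through the cytochrome b6f complex and plastocyanin to photosystem I and on to ferredoxin and NADPH, and the Calvin cycle, with Rubisco at its entry, uses the products to fix carbon dioxide. These nuclear genes are highly expressed in green leaves and are known to be held low in roots, where auxin lowers and light or cytokinin raises their transcripts through regulators such as GLK1, GLK2 and HY5.

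Library totals ranged from 9665704 to 21541793 counts, and values below are CPM, gene counts relative to a library total that was scaled by the trimmed mean of M values. The 16 root marker genes were detected in every library, at summed levels of 5736 to 12190 CPM. Both ipdc libraries of 24 h stood apart from the rest. The first held 57260 CPM of 15 seed marker genes, against 15.6 to 3152 CPM in the other 11 libraries, and the second held the highest share of photosynthesis transcripts. Results that rest on them are given for all libraries and again without each of these.

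Sequences upstream of 4 genes are shown because their transcripts ranged from among the steadiest to among the most variable of the set, and because these windows either hold or lack short elements known from light-regulated promoters. Each is the 250 bases before the annotated gene start, from RefSeq TAIR10.1, and is printed 5′ to 3′ on the gene's strand. Capitals mark the G-box (CACGTG), the I-box (GATAAG) and the CCAATC element, searched on both strands, and TATAAA, searched on the gene's strand.
RBCS2B (chr5:15382072-15382321, minus strand): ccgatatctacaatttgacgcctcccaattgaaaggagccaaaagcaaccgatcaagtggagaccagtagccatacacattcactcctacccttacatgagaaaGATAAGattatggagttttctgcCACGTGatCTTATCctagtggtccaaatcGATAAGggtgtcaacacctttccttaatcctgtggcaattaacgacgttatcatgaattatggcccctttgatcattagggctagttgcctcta
LHCB4.1 (chr5:208616-208865, plus strand): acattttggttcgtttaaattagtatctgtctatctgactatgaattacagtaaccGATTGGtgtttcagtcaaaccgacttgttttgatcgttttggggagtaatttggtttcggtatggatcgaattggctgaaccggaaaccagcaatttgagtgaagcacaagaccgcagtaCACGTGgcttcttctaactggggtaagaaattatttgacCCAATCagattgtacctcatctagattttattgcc
LHCB1.5 (chr2:14523569-14523818, minus strand): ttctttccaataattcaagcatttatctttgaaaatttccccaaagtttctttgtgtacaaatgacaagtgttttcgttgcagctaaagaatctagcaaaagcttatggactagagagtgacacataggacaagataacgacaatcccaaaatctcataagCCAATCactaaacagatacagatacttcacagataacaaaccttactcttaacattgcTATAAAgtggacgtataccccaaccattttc
LHCB1.4 (chr2:14524357-14524606, plus strand): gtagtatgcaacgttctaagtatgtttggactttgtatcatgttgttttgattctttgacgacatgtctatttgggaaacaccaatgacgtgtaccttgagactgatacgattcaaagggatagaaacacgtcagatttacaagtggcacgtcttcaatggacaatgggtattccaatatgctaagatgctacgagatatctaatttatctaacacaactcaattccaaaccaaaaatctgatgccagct

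The RBCS2B window held a G-box 123 bases before the start with I-boxes at 146, 115 and 94 bases. LHCB4.1 had a G-box at 74 bases and CCAATC elements at 194 and 35 bases. LHCB1.5 had a CCAATC element at 89 bases and TATAAA at 31 bases, and none of the 4 elements lay in the LHCB1.4 window. Over the whole set a G-box was found in 7 of 43 windows (16.3%), against 7.4% of the 21116 windows of protein-coding genes in the table. I-boxes were found in 14 windows (32.6%, against 12.4%) and CCAATC in 13 (30.2%, against 2163 of the 21116 windows). The CCAATC element was most frequent upstream of antenna genes, with 9 of 15 windows, and was absent from the 9 photosystem I windows. TATAAA was found in 12 windows (27.9%, against 32.4%). These matches describe letters in the windows and say nothing of whether a factor binds there.

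Photosynthesis transcripts made up a small and uneven share of root RNA. At 7 d the 43 genes together took 0.159% and 0.467% of all counts in ipdc roots, 0.166% and 0.24% in Az39 roots and 0.181% and 0.233% in saline roots. At 24 h they took 0.549% and 3.02% in ipdc roots, 0.29% and 0.263% in Az39 roots and 0.266% and 0.12% in saline roots. The second ipdc library of 24 h was far above the other 11, and both ipdc libraries of that time were above every other library. Counting error was small beside these gaps, with exact 95% binomial intervals of 0.118% to 0.121% in the lowest library and 3.01% to 3.03% in the highest. Antenna genes gave the largest part in each library, 1.43% of counts in the second ipdc library of 24 h and 0.0656% in the second saline library of 24 h. In whole-root RNA, more cells of a type and more RNA per cell cannot be told apart.

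**Figure D1:**
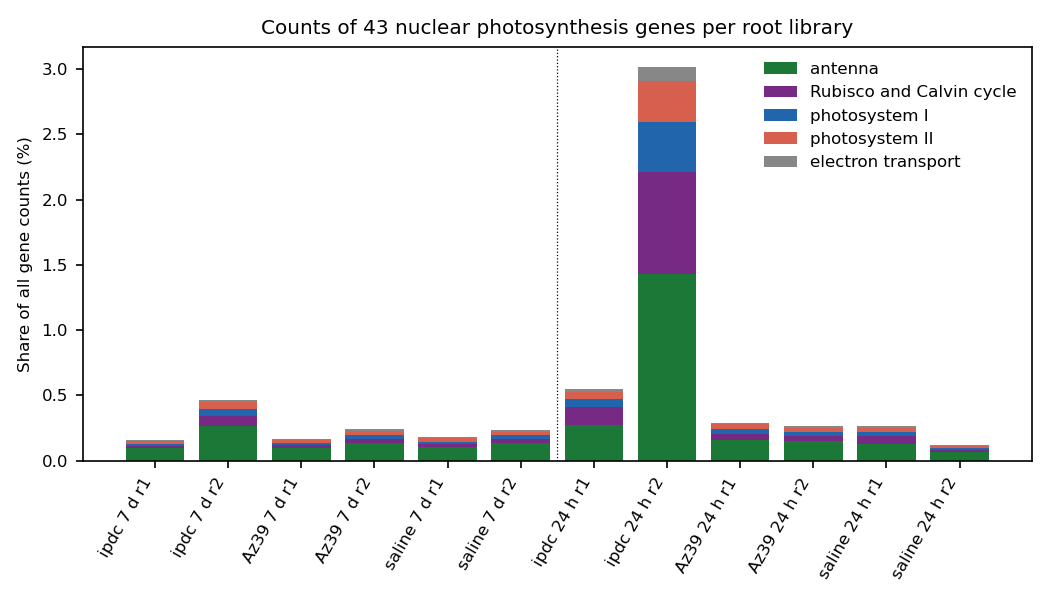
Share of all gene counts (%) taken by the 43 genes in each of the 12 libraries (r1 and r2, replicates), stacked by role, with 7 d left of the dotted line and 24 h right of it. The second ipdc 24 h library reaches 3.02%, and the other 11 lie between 0.12% and 0.549%.

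Replicates of one group differed in the same direction across nearly the whole set. In ipdc roots all 43 genes were higher in the second replicate than in the first, by a median of 3.28-fold at 7 d and 5.4-fold at 24 h. In Az39 roots the second replicate was higher for 43 of 43 genes at 7 d (median 1.65-fold) and for 7 of 43 at 24 h (median ratio 0.794). In saline roots it was higher for 41 of 43 genes at 7 d (median 1.29-fold) and for 0 of 43 at 24 h (median ratio 0.406). The spread that edgeR fitted was accordingly wide, with a median biological coefficient of variation of 51.8% for the 43 genes, against 19.2% for all genes tested, and all 43 lay above that second value.

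Shoot markers outside photosynthesis were read beside this spread. The list held 18 genes, of which 16 were in the table, and their summed level was 73.5 and 165 CPM in ipdc roots, 86.9 and 60.1 CPM in Az39 roots and 60.5 and 47.8 CPM in saline roots at 7 d. At 24 h it was 172 and 327 CPM in ipdc roots, 112 and 182 CPM in Az39 roots and 113 and 69.5 CPM in saline roots. Outside the ipdc libraries of 24 h most of each sum came from PDF1, an epidermal gene, which had 44.3 to 161 CPM over the 12 libraries. Without PDF1, left out after its values were seen, the other 15 genes summed to 2.97 and 79.6 CPM in ipdc roots, 4.66 and 7.17 CPM in Az39 roots and 6.35 and 3.49 CPM in saline roots at 7 d. At 24 h they summed to 91.1 and 166 CPM in ipdc roots, 20.6 and 21.7 CPM in Az39 roots and 25.7 and 6.01 CPM in saline roots. The myrosinase gene TGG1 (AT5G26000), active in leaf guard cells and phloem, stood at 0.387 and 44.5 CPM in ipdc roots, 0.295 and 2.43 CPM in Az39 roots and 2.22 and 0.59 CPM in saline roots at 7 d, and at 48.9 and 80.8 CPM in ipdc roots, 12 and 7.14 CPM in Az39 roots and 13.4 and 0.942 CPM in saline roots at 24 h. The 3 libraries highest in TGG1, and in the sum without PDF1, were the same as those with the highest photosynthesis share. TGG1 gave a large part of that sum in these libraries, so the 2 orders are not independent. Of other markers on the list, only TGG2, STOMAGEN and YAB3 had the same 3 libraries highest. All the remaining markers in the table, CER1, STM and TMM among them, did not. The stomatal regulators MUTE and FAMA stayed at or under 0.884 CPM in every library, the number of undetected shoot markers was 1 and 0 in the ipdc libraries of 24 h and 1 to 6 elsewhere, and SPCH and GL1 were not analysed here. The part of shoot tissue in the photosynthesis differences was not tested.

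**Figure D2:**
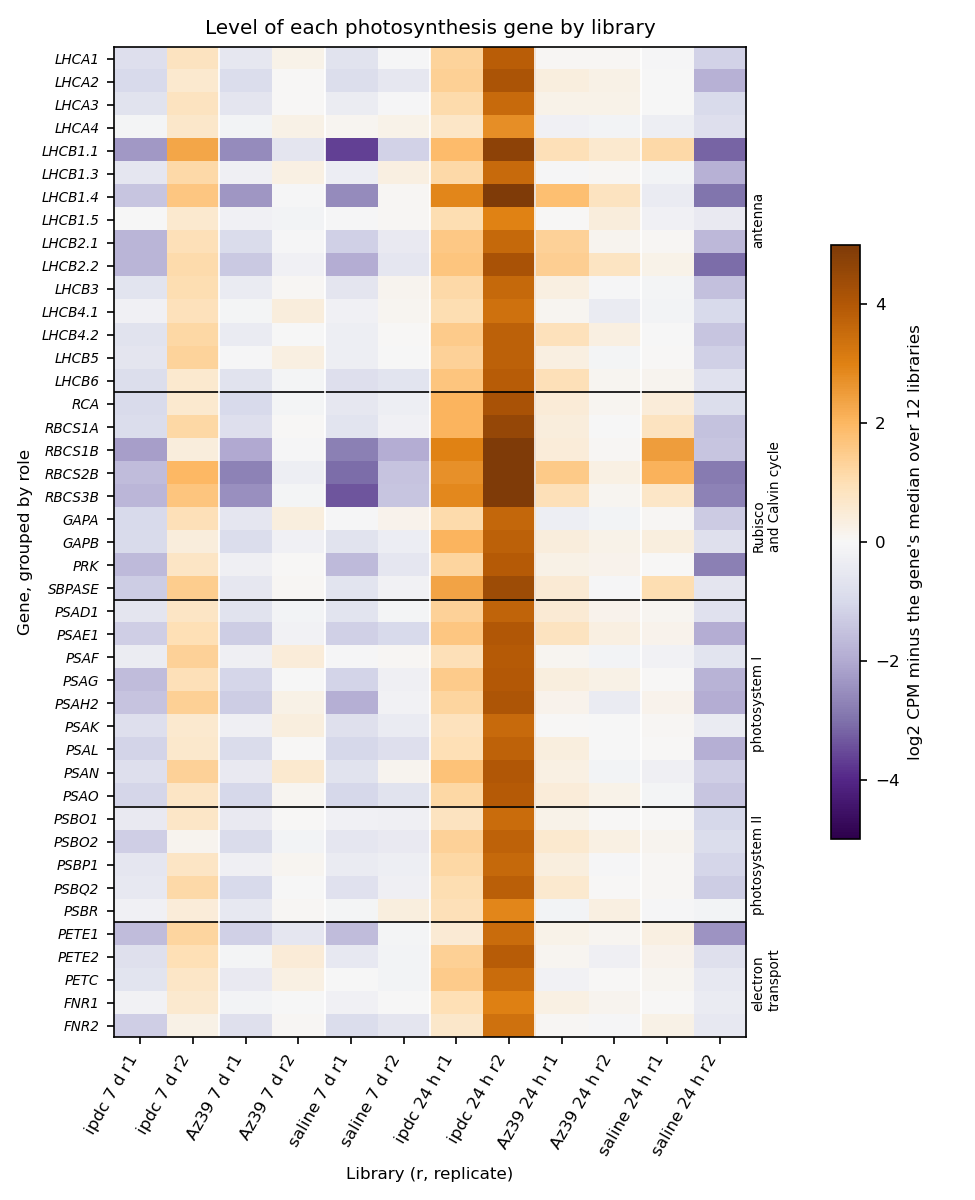
Level of each of the 43 genes (rows, grouped by role) in each library (columns), as log2 CPM minus the gene's median over the 12 libraries, with orange above and purple below that median. The second ipdc 24 h column is the highest for every gene, and the genes LHCB1.1, LHCB1.4, RBCS1B, RBCS2B and RBCS3B show the widest colour range.

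Antenna genes included the most abundant transcript of the set. Per kilobase of transcript, LHCB1.5 (AT2G34420), one of several genes for the major trimeric antenna protein of photosystem II, averaged 559 CPM per kb over the 12 libraries and LHCB1.3 (AT1G29930) 342 CPM per kb. At 7 d LHCB1.5 stood at 343 and 536 CPM in ipdc roots, 296 and 316 CPM in Az39 roots and 337 and 365 CPM in saline roots. At 24 h it stood at 722 and 2730 CPM in ipdc roots, 353 and 457 CPM in Az39 roots and 297 and 255 CPM in saline roots. Outside the ipdc libraries of 24 h it kept within 255 to 536 CPM, a 2.1-fold range. LHCB1.3 had 143 and 468 CPM in ipdc roots, 177 and 254 CPM in Az39 roots and 165 and 261 CPM in saline roots at 7 d, and 462 and 2450 CPM in ipdc roots, 201 and 219 CPM in Az39 roots and 193 and 57.9 CPM in saline roots at 24 h. Its ipdc values were above those of all other 24 h libraries, while at 7 d the ipdc replicates lay on either side of the rest.

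Other genes of the same protein behaved unlike these. LHCB1.1 (AT1G29920) had 8.97 and 227 CPM in ipdc roots, 7.6 and 29.5 CPM in Az39 roots and 3.62 and 20.2 CPM in saline roots at 7 d, and 169 and 1190 CPM in ipdc roots, 86.3 and 68.7 CPM in Az39 roots and 100 and 4.93 CPM in saline roots at 24 h, so replicates of ipdc roots at 7 d and of saline roots at 24 h differed by far more than those of LHCB1.5. LHCB1.4 (AT2G34430) had 5.87 and 49.7 CPM in ipdc roots, 3.12 and 15.4 CPM in Az39 roots and 2.69 and 16.5 CPM in saline roots at 7 d, and 121 and 718 CPM in ipdc roots, 55.8 and 28.2 CPM in Az39 roots and 12.1 and 2.06 CPM in saline roots at 24 h. LHCB1.4 and LHCB1.5 lie next to each other on chromosome 2 on opposite strands, at chr2:14524607-14525918 and chr2:14522524-14523568. Per length, LHCB1.5 gave 43.1% to 82.3% of the transcripts of the 4 LHCB1 genes on the list and LHCB1.4 gave 0.444% to 9.04%. A further LHCB1 gene, CAB3, is not on the list and not counted in these shares. The share of LHCB1.5 was lowest in the second ipdc library of 24 h and highest in the second saline library of 24 h, the libraries with the highest and the lowest photosynthesis share.

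The LHCB2 genes encode another major antenna protein of photosystem II. LHCB2.1 (AT2G05100) had 5.49 and 36.4 CPM in ipdc roots, 9.84 and 18.1 CPM in Az39 roots and 8.16 and 13.9 CPM in saline roots at 7 d, and 56.6 and 225 CPM in ipdc roots, 47.2 and 20.5 CPM in Az39 roots and 19.4 and 5.7 CPM in saline roots at 24 h. LHCB2.2 (AT2G05070) had 4.07 and 30.8 CPM in ipdc roots, 5.48 and 12 CPM in Az39 roots and 3.67 and 9.64 CPM in saline roots at 7 d, and 44.6 and 253 CPM in ipdc roots, 37.9 and 24.7 CPM in Az39 roots and 16.6 and 1.7 CPM in saline roots at 24 h. Both were higher in each ipdc library of 24 h than in any saline library. For the minor antenna protein CP29, LHCB4.1 (AT5G01530) gave 59.3% to 78.2% of the transcripts of the LHCB4.1 and LHCB4.2 pair per length, with 51.3 and 114 CPM in ipdc roots, 55.7 and 79.1 CPM in Az39 roots and 51.5 and 65 CPM in saline roots at 7 d, and 123 and 621 CPM in ipdc roots, 64.5 and 45.7 CPM in Az39 roots and 54.8 and 29.7 CPM in saline roots at 24 h. LHCB4.2 (AT3G08940) had 13.1 and 48.7 CPM in ipdc roots, 15.9 and 20.8 CPM in Az39 roots and 17.2 and 21.4 CPM in saline roots at 7 d, and 60.6 and 294 CPM in ipdc roots, 40.7 and 26.9 CPM in Az39 roots and 21.2 and 7.89 CPM in saline roots at 24 h. In the pair, ipdc roots of 24 h did not overlap Az39 or saline roots.

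Among antenna genes of photosystem I, LHCA4 averaged 183 CPM per kb. LHCA4 (AT3G47470), whose protein binds the far-red chlorophylls of photosystem I, had 146 and 246 CPM in ipdc roots, 141 and 184 CPM in Az39 roots and 164 and 182 CPM in saline roots at 7 d, and 255 and 1030 CPM in ipdc roots, 134 and 140 CPM in Az39 roots and 126 and 88.5 CPM in saline roots at 24 h. LHCA2 (AT3G61470) had 27.5 and 83.8 CPM in ipdc roots, 29.8 and 55.8 CPM in Az39 roots and 30.9 and 38.2 CPM in saline roots at 7 d, and 144 and 951 CPM in ipdc roots, 71.3 and 66.5 CPM in Az39 roots and 54.5 and 15.1 CPM in saline roots at 24 h. The remaining antenna genes LHCA1, LHCA3, LHCB3, LHCB5 and LHCB6 averaged 114 to 216 CPM, and each was highest in the second ipdc library of 24 h. LHCB6 (AT1G15820), for the monomeric antenna protein CP24, had 31.3 and 84.4 CPM in ipdc roots, 34.5 and 52.1 CPM in Az39 roots and 32 and 35.8 CPM in saline roots at 7 d, and 175 and 829 CPM in ipdc roots, 106 and 58.7 CPM in Az39 roots and 61.6 and 33.1 CPM in saline roots at 24 h. Its ipdc libraries of 24 h were each above the other 10 libraries.

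Among Rubisco and Calvin cycle genes, the small-subunit gene RBCS1A (AT1G67090) was the most abundant, at 382 CPM per kb on average. RBCS1A had 84.8 and 350 CPM in ipdc roots, 88.8 and 156 CPM in Az39 roots and 100 and 133 CPM in saline roots at 7 d, and 634 and 3580 CPM in ipdc roots, 204 and 153 CPM in Az39 roots and 278 and 54.6 CPM in saline roots at 24 h. The 3 small-subunit genes clustered on chromosome 5 varied most among the Rubisco and Calvin cycle genes. RBCS3B (AT5G38410) had 11.3 and 120 CPM in ipdc roots, 6.9 and 35.8 CPM in Az39 roots and 3.62 and 14.3 CPM in saline roots at 7 d, and 279 and 1600 CPM in ipdc roots, 74.6 and 40.6 CPM in Az39 roots and 62.2 and 5.83 CPM in saline roots at 24 h. RBCS2B (AT5G38420), whose upstream window is printed above, had 2.39 and 28.4 CPM in ipdc roots, 1.12 and 5.93 CPM in Az39 roots and 0.878 and 2.61 CPM in saline roots at 7 d, and 48.2 and 391 CPM in ipdc roots, 21.4 and 8.98 CPM in Az39 roots and 31.4 and 1.03 CPM in saline roots at 24 h. RBCS1B (AT5G38430) had 0.968 and 5.96 CPM in ipdc roots, 1.12 and 4.37 CPM in Az39 roots and 0.671 and 1.18 CPM in saline roots at 7 d, and 35.7 and 187 CPM in ipdc roots, 6.17 and 4.63 CPM in Az39 roots and 25.4 and 1.66 CPM in saline roots at 24 h. For all 3 the first saline library of 24 h was above most of the Az39 libraries, and the second saline library was far below the first. Per length RBCS1A gave 60.6% to 94.9% of small-subunit transcripts, and its share was lowest in the second ipdc library of 24 h and highest in the first saline library of 7 d. RBCS1B and RBCS3B shared 84 windows of 150 bases, the read length, so a few of their reads cannot be assigned to one gene.

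**Figure D3:**
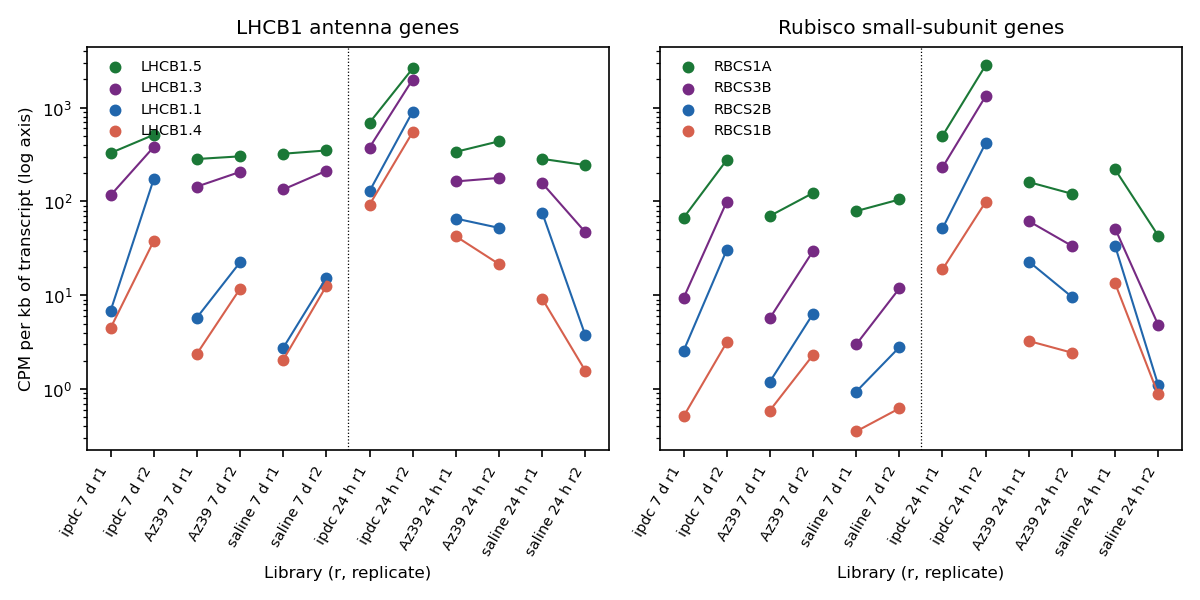
Level of the LHCB1 genes on the list (left, without CAB3) and Rubisco small-subunit genes (right) in CPM per kb of transcript on a log axis, by library, with lines joining the 2 replicates of a group. LHCB1.5 and RBCS1A lead in every library, and LHCB1.1, LHCB1.4, RBCS1B, RBCS2B and RBCS3B move most between replicates.

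Further carbon fixation genes were highest in the same ipdc libraries of 24 h. RCA (AT2G39730), for the activase that frees Rubisco of bound inhibitors, had 40.2 and 117 CPM in ipdc roots, 38.5 and 72.8 CPM in Az39 roots and 53.1 and 63.6 CPM in saline roots at 7 d, and 321 and 1370 CPM in ipdc roots, 110 and 82.4 CPM in Az39 roots and 105 and 42.7 CPM in saline roots at 24 h. GAPA (AT3G26650) and GAPB (AT1G42970) encode the subunits of the chloroplast glyceraldehyde-3-phosphate dehydrogenase. GAPA had 17.2 and 67.7 CPM in ipdc roots, 23.2 and 44.5 CPM in Az39 roots and 33.4 and 39.4 CPM in saline roots at 7 d, and 76 and 423 CPM in ipdc roots, 28 and 32 CPM in Az39 roots and 36.2 and 14 CPM in saline roots at 24 h. GAPB had 13.9 and 36 CPM in ipdc roots, 14.7 and 23.5 CPM in Az39 roots and 17 and 21.8 CPM in saline roots at 7 d, and 112 and 373 CPM in ipdc roots, 36 and 31.6 CPM in Az39 roots and 35.4 and 15.9 CPM in saline roots at 24 h. For RCA and GAPB the ipdc libraries of 24 h were each above the other 10 libraries. PRK (AT1G32060), for phosphoribulokinase, ranged from 2.33 to 236 CPM. SBPASE (AT3G55800), for sedoheptulose-bisphosphatase, was among the least abundant members per length, with 3.23 and 21.5 CPM in ipdc roots, 5.31 and 8.05 CPM in Az39 roots and 4.96 and 6.89 CPM in saline roots at 7 d, and 39.7 and 162 CPM in ipdc roots, 11.1 and 7.35 CPM in Az39 roots and 15.7 and 5.11 CPM in saline roots at 24 h.

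Photosystem I genes were alike in pattern over the 12 libraries, and less so without ipdc roots of 24 h. PSAF (AT1G31330), for a subunit that docks plastocyanin, had 43.1 and 140 CPM in ipdc roots, 46.3 and 75.6 CPM in Az39 roots and 52.7 and 57.4 CPM in saline roots at 7 d, and 107 and 838 CPM in ipdc roots, 59 and 50.4 CPM in Az39 roots and 48.9 and 35 CPM in saline roots at 24 h. For PSAF the second ipdc library of 7 d was above the first ipdc library of 24 h. PSAK (AT1G30380), a subunit at the antenna side, had 26.5 and 70.3 CPM in ipdc roots, 37.9 and 59.3 CPM in Az39 roots and 26.6 and 34.4 CPM in saline roots at 7 d, and 84.8 and 534 CPM in ipdc roots, 46.4 and 44.8 CPM in Az39 roots and 47.4 and 34.1 CPM in saline roots at 24 h. The other 7, PSAD1, PSAE1, PSAG, PSAH2, PSAL, PSAN and PSAO, averaged 20.7 to 83.2 CPM, lowest for PSAH2 and highest for PSAL. PSAO, PSAG and PSAL followed the mean of the other 42 genes most closely, with Pearson r of 0.994, 0.993 and 0.993 over 12 libraries. Over the 10 without ipdc roots of 24 h their r was 0.977, 0.982 and 0.977. PSAF (0.944 over 12 and 0.783 over 10) and PSAK (0.96 and 0.849) were lowest among the photosystem I genes.

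Photosystem II genes of the set encode proteins at the water-oxidising side. PSBO1 (AT5G66570) and PSBO2 (AT3G50820) encode the manganese-stabilising protein, and PSBO1 gave 77.9% to 89.7% of their transcripts per length. PSBO1 had 85.9 and 197 CPM in ipdc roots, 87.3 and 118 CPM in Az39 roots and 103 and 98.7 CPM in saline roots at 7 d, and 213 and 1340 CPM in ipdc roots, 138 and 120 CPM in Az39 roots and 118 and 58 CPM in saline roots at 24 h. PSBO2 had 8.72 and 22.6 CPM in ipdc roots, 11 and 19.1 CPM in Az39 roots and 13.9 and 15.1 CPM in saline roots at 7 d, and 53 and 278 CPM in ipdc roots, 31.9 and 25.1 CPM in Az39 roots and 22.5 and 11.4 CPM in saline roots at 24 h. Both ipdc libraries of 24 h were the highest 2 for each gene. PSBP1 (AT1G06680) had 48.7 and 121 CPM in ipdc roots, 61.1 and 77.6 CPM in Az39 roots and 53.7 and 58.8 CPM in saline roots at 7 d, and 165 and 862 CPM in ipdc roots, 93.2 and 69.9 CPM in Az39 roots and 74.6 and 34 CPM in saline roots at 24 h. PSBR (AT1G79040) was the steadiest gene of the set outside ipdc roots of 24 h, with 58.3 and 92.5 CPM in ipdc roots, 49.3 and 71.1 CPM in Az39 roots and 64.2 and 89.4 CPM in saline roots at 7 d, and 134 and 510 CPM in ipdc roots, 62.8 and 85.2 CPM in Az39 roots and 65.5 and 62.8 CPM in saline roots at 24 h. PSBQ2 (AT4G05180) ranged from 9.6 to 319 CPM.

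In electron transport, plastocyanin came almost wholly from PETE2 (AT1G20340), with 82.7% to 94.9% of plastocyanin transcripts per length. PETE2 had 17.2 and 57.5 CPM in ipdc roots, 27.6 and 40.9 CPM in Az39 roots and 21 and 26.5 CPM in saline roots at 7 d, and 76.4 and 427 CPM in ipdc roots, 30.9 and 24.7 CPM in Az39 roots and 33 and 17 CPM in saline roots at 24 h. PETE1 (AT1G76100) was the least abundant member per length, with 1.23 and 9.11 CPM in ipdc roots, 1.65 and 2.56 CPM in Az39 roots and 1.24 and 3.54 CPM in saline roots at 7 d, and 5.49 and 42.6 CPM in ipdc roots, 4.32 and 4.01 CPM in Az39 roots and 4.78 and 0.718 CPM in saline roots at 24 h. PETC (AT4G03280), for the Rieske protein of the cytochrome b6f complex, had 16.8 and 43.2 CPM in ipdc roots, 18.9 and 31.8 CPM in Az39 roots and 25.6 and 24 CPM in saline roots at 7 d, and 73.2 and 295 CPM in ipdc roots, 23.2 and 26.5 CPM in Az39 roots and 27.9 and 18.4 CPM in saline roots at 24 h. The leaf-type ferredoxin-NADP reductase genes FNR1 (AT5G66190) and FNR2 (AT1G20020) were near each other, FNR1 giving 44% to 67.4% of the pair per length. FNR1 had 18 and 31.3 CPM in ipdc roots, 18.4 and 20.3 CPM in Az39 roots and 17.6 and 20 CPM in saline roots at 7 d, and 40.9 and 168 CPM in ipdc roots, 25.1 and 22.3 CPM in Az39 roots and 20.5 and 15.4 CPM in saline roots at 24 h. FNR2 had 38 and 248 CPM in ipdc roots, 25.1 and 23 CPM in Az39 roots and 28.4 and 17.2 CPM in saline roots at 24 h. For PETC, FNR1 and FNR2 both ipdc libraries of 24 h were above the other 10, while for PETE1 the first was below the second ipdc library of 7 d.

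Photosynthesis genes were higher in ipdc than in saline roots at 24 h, and 7 of them passed the test. Log2 fold changes are ipdc over saline with standard errors, from edgeR's quasi-likelihood test fitted to all 12 libraries, and a call means an adjusted p (Benjamini-Hochberg, over 18867 genes) under 0.05. The 7 called higher were LHCB1.5, LHCA4, LHCB6, RCA, GAPB, PETC and FNR1, against a background of 1.93% of all genes called higher. LHCB1.5 rose by 2.64 ± 0.50 (adjusted p = 0.0378) and GAPB by 3.24 ± 0.64 (adjusted p = 0.0397). LHCA4 stood 2.59 ± 0.54 higher and FNR1 2.54 ± 0.53 higher (adjusted p = 0.0446 and 0.0455). All 43 genes had both ipdc libraries above both saline libraries, which held for 21.7% of all genes tested, and 42 had an unadjusted p under 0.05, against 11.9% of all genes in that direction. The median log2 fold change was 3.46, an 11-fold difference, against 0.01 for all genes. The highest values were those of LHCB1.4 (5.90 ± 1.51, adjusted p = 0.0701) and RBCS3B (4.79 ± 1.53, adjusted p = 0.132) and the lowest that of PSBR (2.33 ± 0.53, adjusted p = 0.053). Shoot markers outside photosynthesis stood at a median of 3.18 in this comparison, with 9 of 9 tested above 0, and their part in the result was not tested. By role the medians were 3.49 for antenna, 3.52 for Rubisco and Calvin cycle, 3.74 for photosystem I, 3.24 for photosystem II and 2.99 for electron transport genes.

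These calls lay close to the threshold and changed with the libraries in the fit. DESeq2 called 39 of the 43 higher, against 6.5% of all genes, and limma-voom 2, LHCB1.5 and GAPB, against 1.38%. Without the first ipdc library of 24 h more were called, and log2 fold changes ran from 2.94 to 6.61. Without the second fewer were called, and log2 fold changes ran from 0.74 to 4.11, with a median of 1.68. Leaving out either saline or either Az39 library of either time gave 0 called, and leaving out either ipdc library of 7 d gave 1, GAPB. All 43 remained above 0 in each of these fits.

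Between the strains at 24 h the same direction was seen without calls. All 43 genes had both ipdc libraries above both Az39 libraries, against 23.9% of all genes tested, and the median log2 fold change was 2.79 (ipdc over Az39), against 0.03 for all genes. By edgeR 0 of 43 were called, against 0.869% of all genes called higher, 40 had an unadjusted p under 0.05 (12.4% of all genes), DESeq2 called 28 (6.01% of all genes) and limma-voom 0. PETC (2.89 ± 0.63, adjusted p = 0.062) and GAPB (2.84 ± 0.63, adjusted p = 0.0633) had the smallest adjusted p by edgeR. The highest fold change was that of RBCS1B (4.38 ± 1.28, adjusted p = 0.106) and the lowest that of LHCB2.1 (2.06 ± 0.92, adjusted p = 0.267). By edgeR, leaving out the first ipdc library gave calls, with log2 fold changes of 2.69 to 5.08. Leaving out the second did not, with log2 fold changes of 0.4 to 2.73 and a median of 1.05.

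Between Az39 and saline roots at 24 h no member passed the test. By edgeR 0 of 43 were called, as were 0% of all genes, 0 had an unadjusted p under 0.05 (1.32% of all genes), and DESeq2 and limma-voom each called 0. The median log2 fold change was 0.59 (Az39 over saline), 40 genes were above 0, and 21 had both Az39 libraries above both saline libraries, against 13.6% of all genes. The 2 saline libraries lay on either side of the Az39 values for many members, and the median was 1.31 without the first saline library and 0.10 without the second. LHCB1.4 (2.57 ± 1.32) and LHCB2.2 (1.78 ± 1.15) had the highest values and RBCS1B (-1.33 ± 1.19) the lowest, each with an adjusted p of 1 by edgeR.

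At 7 d no member passed in any of the 3 comparisons by edgeR, none had an unadjusted p under 0.05, and DESeq2 and limma-voom called 0. For ipdc over saline the background of all genes called was 0.0159%, the median log2 fold change was 0.69, and no member had groups that did not overlap, against 28.6% of all genes in the higher and 23.7% in the lower direction. An unadjusted p under 0.05 was reached by 10.5% of all genes there. LHCB1.1 (3.31 ± 1.67, adjusted p = 0.527) and RBCS2B (3.13 ± 1.66, adjusted p = 0.549) stood highest, and PSBR lowest (-0.03 ± 0.50). Without the second ipdc library of 7 d the median was -0.45. For Az39 over saline, where the background was 3.69% called and 24.3% at an unadjusted p under 0.05, the median was 0.17, 4 members had Az39 libraries above saline libraries (30.6% of all genes), PRK, PSAK, PSBP1 and PETE2, and 1, LHCB1.5, had them below (26.4%). That median was -0.25 without the second Az39 library of 7 d and 0.46 without the second saline library of 7 d. The highest fold change there was that of RBCS1B (1.55 ± 1.43, adjusted p = 0.541) and the lowest that of PSBR (-0.35 ± 0.50). For ipdc over Az39 the background called was 0.117%, with 3.49% of all genes higher and 5.75% lower at an unadjusted p under 0.05, the median was 0.50 (-0.64 without the second ipdc library of 7 d), and 1 member, LHCB1.5, had ipdc libraries above Az39 libraries (20.4% of all genes). LHCB1.1 (2.67 ± 1.63) was highest and PSAK (-0.01 ± 0.69) among the lowest in that comparison.

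**Figure D4:**
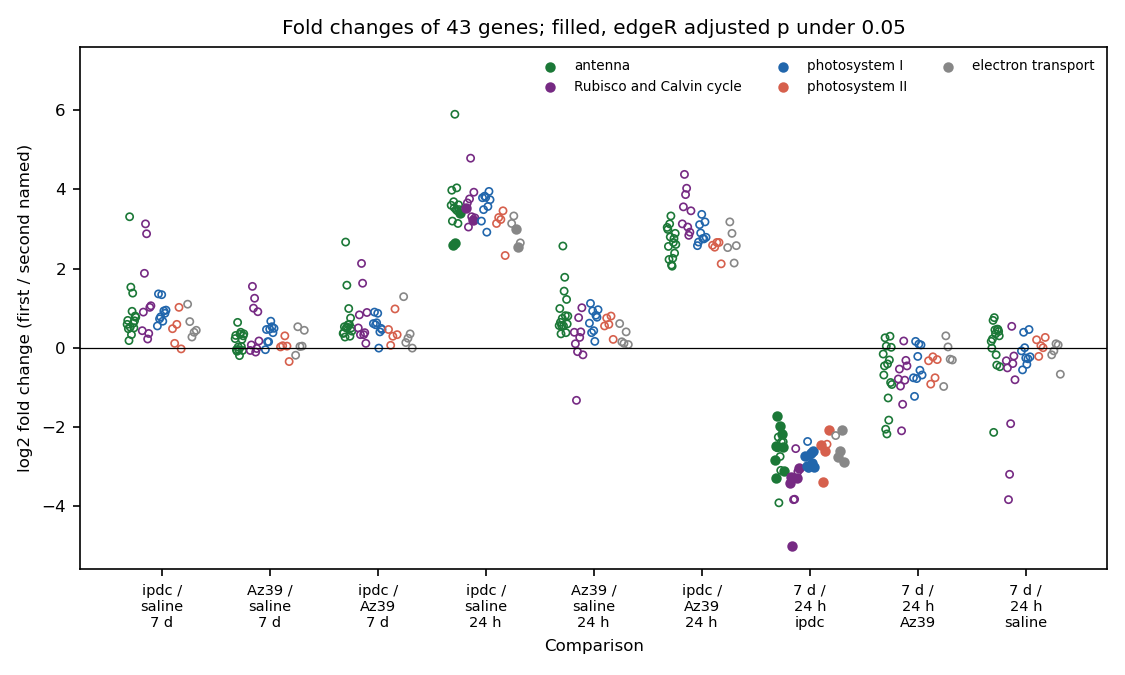
Log2 fold change of each of the 43 genes (points, coloured by role) in 9 comparisons, each the first named group over the second, with filled points for an edgeR adjusted p under 0.05. Filled points stand in 2 columns, ipdc over saline at 24 h (7 genes, higher) and 7 d over 24 h in ipdc roots (27 genes, lower).

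In ipdc roots the genes were lower at 7 d than at 24 h. By edgeR 27 of 43 were called lower and 0 higher, against 10.5% of all genes called lower, and 37 had both 7 d libraries below both 24 h libraries, against 32.3% of all genes. Of the 43, 41 had an unadjusted p under 0.05 (19.6% of all genes) and DESeq2 called 38 (13.4%). The median log2 fold change was -2.73 (7 d over 24 h), against -0.05 for all genes. The smallest adjusted p values were those of GAPB (-3.29 ± 0.64, adjusted p = 0.0112), PSBO2 (-3.40 ± 0.74, adjusted p = 0.015), RCA (-3.42 ± 0.75, adjusted p = 0.016) and LHCB6 (-3.12 ± 0.72, adjusted p = 0.0185). RBCS1B fell furthest (-5.02 ± 1.32, adjusted p = 0.0283) and LHCA4 least (-1.72 ± 0.52, adjusted p = 0.0449) among the called. The 7 genes called higher in ipdc than in saline roots at 24 h were all among the 27, and both comparisons use the same ipdc libraries. The called members were 8 of 15 antenna, 5 of 9 Rubisco and Calvin cycle, 6 of 9 photosystem I, 4 of 5 photosystem II and 4 of 5 electron transport genes. By limma-voom 13 were called (7.23% of all genes). Without the second ipdc library of 24 h edgeR called fewer, the median was -1.03 and fold changes ran from -3.37 to -0.09. Calls also fell without either ipdc library of 7 d. Fold changes ran from -4.22 to -1.39 without the first and from -6.84 to -2.14 without the second. Fewer were also called without either Az39 library of 24 h or either saline library of 7 d. Fold changes there kept to -5.02 to -1.72.

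In the other groups no member passed the test between the times. In Az39 roots 0 of 43 were called by edgeR, against 13.9% of all genes, 0 had an unadjusted p under 0.05 (30.8% of all genes), DESeq2 and limma-voom called 0, and the median log2 fold change was -0.46 (7 d over 24 h). It was -0.21 without the first Az39 library of 7 d and -1.01 without the second. Both 7 d libraries were below both 24 h libraries for 24 members, against 30.2% of all genes, and above them for 1, against 30%. In saline roots edgeR called 0 of 43, against 16.6% of all genes, 1 had an unadjusted p under 0.05 (33.7% of all genes) and the median was -0.08. That median was 0.80 without the first saline library of 24 h and -0.60 without the second. The gene with the unadjusted p under 0.05 was RBCS1B (-3.84 ± 1.37, adjusted p = 0.0802), the 1 member that DESeq2 called, against 22.9% of all genes, and limma-voom did not call. The saline groups overlapped for most members, with 3 higher at 7 d in both libraries (33.9% of all genes) and 2 lower (33.7%). The highest values were those of LHCB1.3 (0.76 ± 0.78) and LHCA4 (0.69 ± 0.51).

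Whether the difference between ipdc and saline roots itself changed with time was tested as an interaction. By edgeR 0 of 43 members were called, against 0.106% of all genes, with a median log2 difference of -2.65 (the 7 d over the 24 h effect) and 28 members at an unadjusted p under 0.05 (13.9% of all genes). DESeq2 called 5 (3.72% of all genes), LHCA4, LHCB1.5, GAPB, PSBR and PETC, and limma-voom 0. Without the first ipdc library of 24 h edgeR called some members, and log2 differences ran from -5.11 to -1.15. Without the second ipdc library of 24 h edgeR called 0, with a median of -1.04, and without the second ipdc library of 7 d the median was -3.93. The smallest adjusted p by edgeR was 0.183. For Az39 over saline the interaction gave 0 called members, against 0.0424% of all genes, a median of -0.42 and 0 at an unadjusted p under 0.05 (11.8% of all genes), and DESeq2 and limma-voom called 0. Its median was -1.23 without the first saline library of 24 h and 0.01 without the second.

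Genes of neighbouring pathways were read from lists that hold no member. Of 25 other photosystem and electron transport genes, 6 were called higher and 0 lower in ipdc than in saline roots at 24 h by edgeR (median log2 fold change 2.73), against 1.93% of all genes called higher. They included PSB27 (3.49 ± 0.64, adjusted p = 0.0358), a photosystem II assembly factor, the ATP synthase subunit gene ATPG (1.86 ± 0.35, adjusted p = 0.0378) and PGRL1A (1.84 ± 0.35, adjusted p = 0.0386), of cyclic electron flow. PSB27 had 34.3 and 131 CPM in ipdc roots, 9.46 and 8.64 CPM in Az39 roots and 9.77 and 5.02 CPM in saline roots at 24 h. Of 13 other Calvin cycle genes 3 were called higher (median 1.56), CP12-1 (2.14 ± 0.31, adjusted p = 0.0188), a regulator of the cycle, RPE (1.56 ± 0.31) and FBPASE (3.89 ± 0.81). Of 11 tested photorespiration genes 2 were called higher (median 1.90), GOX2 (1.73 ± 0.37), a glycolate oxidase, and HPR1 (3.25 ± 0.71), a hydroxypyruvate reductase. None of the 3 lists had a gene called lower. Without the first ipdc library of 24 h, where 3.34% of all genes were called higher, the calls were 19 photosystem and electron transport, 8 Calvin cycle and 7 photorespiration genes. Without the second, with 5.56% of all genes called higher, they were 4, 1 and 1 genes in that order. PSB27, ATPG, PGRL1A and CP12-1 were called in both of these fits, while RPE, FBPASE, GOX2 and HPR1 were called without the first alone (adjusted p of 0.0531 to 0.0853 without the second). Without either saline library of 24 h none of the 3 lists had a call, and without either Az39 library of 24 h CP12-1 alone was called. CP12-1 had 96 and 161 CPM in ipdc roots, 18.6 and 31.4 CPM in Az39 roots and 26.8 and 31.4 CPM in saline roots, so each ipdc library was above the others of that time.

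Genes of chlorophyll synthesis all had a log2 fold change above 0 in ipdc over saline roots at 24 h. Of 21 genes 4 were called higher and 0 lower, against 1.93% of all genes called higher, 21 had an unadjusted p under 0.05 (11.9% of all genes), and the median was 3.24-fold. CHLM (1.55 ± 0.29, adjusted p = 0.0378), a methyltransferase of the pathway, CAO (adjusted p = 0.0389), which makes chlorophyll b, and HEMC (1.09 ± 0.22, adjusted p = 0.0416) were among them. CHLM and CAO were also called higher in ipdc than in Az39 roots (1.77 ± 0.30 and 1.89 ± 0.33, adjusted p = 0.0373 and 0.0403). These were 2 of 21, against 0.869% of all genes called higher. Without the first ipdc library of 24 h log2 fold changes over saline were 1.9 for CHLM, 1.86 for CAO and 1.27 for HEMC. Without the second they were 0.99, 1.44 and 0.82. The calls over saline were lost without any 1 of the saline or Az39 libraries of either time. The protochlorophyllide oxidoreductase genes did not pass by edgeR. PORB had 25.9 and 216 CPM in ipdc roots and 17.9 and 9.37 CPM in saline roots at 24 h (3.15 ± 0.90, adjusted p = 0.0956). PORC stood at 2.62 ± 0.70 (adjusted p = 0.0806) and PORA was at or under 1.59 CPM in every library (adjusted p = 0.153).

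Regulators of greening gave calls for some genes. Of 16 genes 5 were called higher and 0 lower in ipdc than in saline roots at 24 h (median 1.25), against 1.93% of all genes called higher. GLK2 had 16.6 and 23.3 CPM in ipdc roots, 7.1 and 7.48 CPM in Az39 roots and 6.17 and 6.15 CPM in saline roots and was called (1.69 ± 0.32, adjusted p = 0.0372). GLK1 had 2.46 and 15 CPM in ipdc roots, 3.91 and 2.11 CPM in Az39 roots and 1.8 and 1.48 CPM in saline roots and was not (2.41 ± 0.83, adjusted p = 0.166). For both GLK genes the ipdc libraries were above the saline libraries, and for GLK1 the first ipdc library was below the first Az39 library. HY5 had 46.1 and 39.5 CPM in ipdc roots, 29.8 and 28 CPM in Az39 roots and 30.6 and 29.4 CPM in saline roots and did not pass (0.51 ± 0.16, adjusted p = 0.119). Called with GLK2 were the GATA factor gene CGA1 (6.41 ± 1.08, adjusted p = 0.0279) and the bHLH factor gene PIF4 (3.34 ± 0.57, adjusted p = 0.029). CGA1, with 15 and 2.56 CPM in ipdc roots, 0.206 and 0.476 CPM in Az39 roots and 0.103 and 0.0897 CPM in saline roots, was higher in the first ipdc library than in the second, unlike the 43 photosynthesis genes. Without the first ipdc library of 24 h log2 fold changes over saline were 1.87 for GLK2, 4.58 for CGA1 and 3.49 for PIF4. Without the second they were 1.43, 7.18 and 3.1. PIF1 stood at 1.49 without the first and 4.22 without the second, and SIG6 at 1.75 and 0.97. Calls changed between these fits, and no regulator was called without any 1 of the saline or Az39 libraries of 24 h.

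Root-type redox genes of the plastid, which supply electrons for nitrite reduction and other non-photosynthetic reactions, gave no call. Of 7 such genes 0 were called in ipdc against saline roots at 24 h by edgeR, DESeq2 or limma-voom, 0 had an unadjusted p under 0.05, and the median was -0.12. The root ferredoxin gene FD3 had 250 and 278 CPM in ipdc roots, 261 and 291 CPM in Az39 roots and 247 and 284 CPM in saline roots at 24 h (-0.01 ± 0.18). The root-type ferredoxin-NADP reductase genes RFNR1 and RFNR2 stood at -0.07 ± 0.16 and -0.51 ± 0.26, against the called rise of the leaf-type FNR1 given above. The nitrite reductase gene NIR1 stood at 0.00 ± 0.29. Without the second ipdc library of 24 h 2 were called lower, G6PD3 and RFNR2, against 250 of 19185 genes, and without the first 0. Whether the leaf-type and root-type responses differ was not tested as a contrast.

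Members differed in how far they moved outside the ipdc libraries of 24 h. Over the other 10 libraries the ratio of the highest to the lowest value had a median of 5.32 for the 43 genes, against 2.1 for all genes tested. With all 12 libraries it was 34.7, against 2.35. PSBR (1.88-fold), FNR1 (2.03-fold) and LHCB1.5 (2.1-fold) kept the narrowest ranges over the 10, and LHCB1.1 (62.8-fold), RBCS1B (37.8-fold), RBCS2B (35.8-fold) and RBCS3B (33.3-fold) the widest. Transcripts of 14 members overlap a gene on the opposite strand that is also in the table, the setting of the count for strand is not given in the sources used here, and reads of such pairs may not be told apart. The 14 had a median range of 4.8-fold over the 10 libraries (1.88 to 11.3) and the other 29 of 5.32-fold (2.57 to 62.8). They held 4 of the 8 narrowest ranges and 1 of the 8 widest, PSBR, FNR1 and LHCB1.5 being among the narrow ones. Whether overlap bears on the range was not tested. PSBR shares 51 bases with RECA1 (AT1G79050), whose level was 16.4 to 31.6 CPM. FNR1 shares 191 bases with AT5G66180, at 19.6 to 36.4 CPM, and LHCB1.5 shares 99 bases with RWA3 (AT2G34410), at 23.4 to 41.6 CPM. All of LHCB1.5 also lies within the opposite-strand locus AT2G08665 of the annotation, which is not among the genes of the count table.

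**Figure D5:**
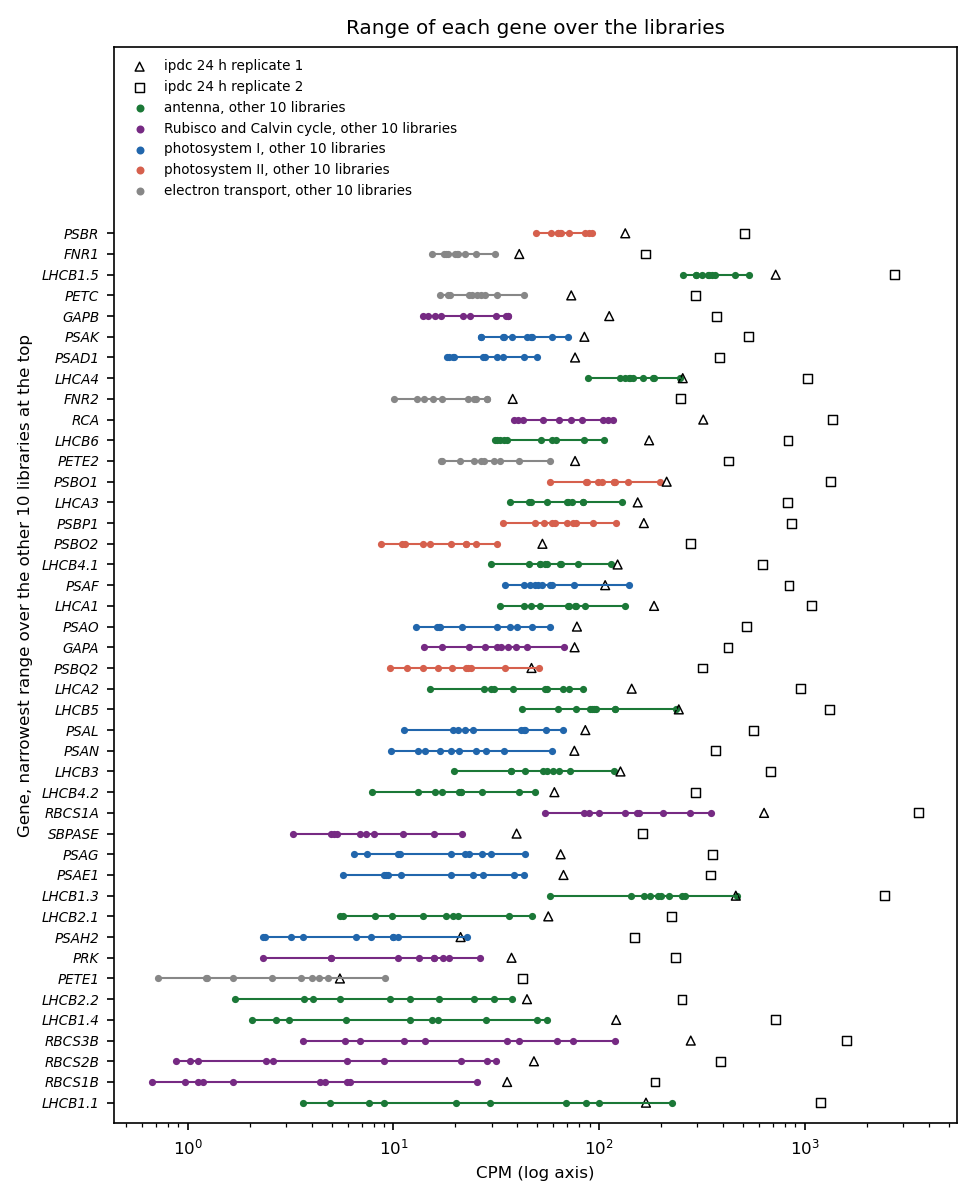
CPM of each of the 43 genes on a log axis, with filled points for the 10 libraries other than ipdc 24 h, a line from their lowest to their highest, and open symbols for the ipdc 24 h libraries. Genes run from the narrowest range (PSBR, 1.88-fold) at the top to the widest (LHCB1.1, 62.8-fold) at the bottom, and the open squares of the second ipdc 24 h library lie right of all other points of the same gene.

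The genes whose pattern was most like the mean of the 43 were found by Pearson r of log2 CPM. Over all 12 libraries the first 8 were PTAC16 (r = 0.993), GAPA-2 (0.989), PSBQA (0.985), PSAD-2 (0.985), PSBW (0.982), PSBTN (0.981), PSBY (0.981) and PSI-P (0.979). Each was highest in the second ipdc library of 24 h. Over the 10 libraries without ipdc roots of 24 h they were PTAC16 (0.982), CAB3 (0.98), GAPA-2 (0.966), FBA1 (0.95), LrgB (0.949), NPQ4 (0.948), PSI-P (0.938) and PSAD-2 (0.938), so 4 of 8 stood in both. CAB3 (AT1G29910) is a further LHCB1 gene that was not on the list, and it ranged from 5.7 to 223 CPM over the 10 libraries. Each member's own r with the mean of the other 42 was 0.904 to 0.994 over 12 libraries and 0.567, for LHCA4, to 0.982, for PSAG, over the 10. These values are descriptions over libraries that share depth and composition.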

How the data were processed

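The authors deposited raw counts per gene for 12 libraries (whole numbers, not normalized). Per the submitters' processing notes, reads were aligned with HISAT2 2.2.1 and counted with featureCounts on the TAIR10 build. The strand and multi-mapping settings are not stated by any source at hand, and the library kit named in the labels does not mark strand. Library totals ran from 9665704 to 21541793 counts, and exact binomial intervals cover counting error only.

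From the counts, edgeR 4.0.16 (R 4.3.3) was fitted to 18867 genes kept by filterByExpr (minimum count 10, total 15, proportion 0.7) over 6 groups of 2, with 6 residual degrees of freedom, TMM scaling, the quasi-likelihood test and Benjamini-Hochberg adjustment over all genes tested. Fold changes carry a prior count of 0.125. The 11 comparisons were also run with DESeq2 1.42.0 and limma-voom 3.58.1, with other scalings and filters, a replicate block and each library left out. The edgeR fit was tested on simulated data. Each gene was drawn there with the common coefficient of variation of 24.5%, below the members' median of 51.8%. The simulation therefore does not gauge error or power for this set. Sequences and overlaps come from RefSeq TAIR10.1, read by its own annotation.

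All 43 members could be named. Values by library are given for the most abundant 2 of each role, up to 4 called members of a comparison with the smallest adjusted p, the highest and lowest fold changes and the paralog sets. From each other list up to 3 called genes are named, with GLK1, GLK2, HY5, the POR genes, FD3, RFNR1, RFNR2 and NIR1 whatever their result. TGG1, TGG2, STOMAGEN, CER1, STM, TMM, MUTE, FAMA, SPCH and GL1 of the shoot list and the opposite-strand genes were chosen after values were seen. The 43 members and the other lists were chosen with earlier results of these data known.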

Additional observations from a re-analysis of the deposited data

How the results depend on the processing

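The members' direction was not reversed in ipdc over saline or ipdc over Az39 roots at 24 h, nor in ipdc roots over time, under any alternative run. Numbers of calls did move. The share of all genes called moved too, so the counts below do not show a change in the members alone. For ipdc over saline at 24 h, 1.93% of all genes were called higher by edgeR, 6.5% by DESeq2 and 1.38% by limma-voom. For ipdc over Az39 at 24 h it was 0.869% by edgeR and 6.01% by DESeq2. In ipdc roots over time, 10.5% were called lower by edgeR and 7.23% by limma-voom. Counts for the other refits are given here without that share. For ipdc over saline at 24 h, where 7 members were called, no low-count filter gave 19, DESeq2 39, limma-voom 2, the replicate block 2 and a fit of the 24 h libraries alone 0, and leaving out one library gave 0 to 35. For ipdc over Az39 at 24 h, with 0 called, DESeq2 gave 28 and leaving out one library 0 to 31. For 7 d over 24 h in ipdc roots, with 27 called, limma-voom gave 13, the replicate block 25 and leaving out one library 0 to 36. In saline roots over time DESeq2 called 1 and leaving out one library gave 0 to 1, and for the ipdc interaction DESeq2 called 5 and leaving out one library gave 0 to 8. The labels do not say whether the replicate marks denote a shared batch, and this was not tested. Over all genes tested, deviations from the group means correlated at -0.25 to 0.12 between same-numbered libraries. For the members alone the second library was the higher in all groups of 7 d, for 43, 43 and 41 genes in ipdc, Az39 and saline roots. At 24 h it was the higher for 43, 7 and 0 genes in that order. A crossed replicate block for ipdc over Az39 at 24 h, chosen after seeing the data, called 0. The share without the most counted member was 0.195% in the second saline library of 7 d, and 0.255% and 0.216% in the Az39 libraries of 24 h. The cause of these changes was not tested, and a fit of fewer libraries also has fewer degrees of freedom. Calls in the other gene lists, refitted in the same way after seeing the data, were 0 for ipdc over saline at 24 h without either saline library of that time. With 2 libraries a group, precision is limited.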

Other observations

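Clock genes and markers of other tissues were read from further lists in ipdc over saline roots at 24 h by edgeR, where 1.93% of all genes were called higher. Of 5 evening clock genes 2 were called higher and 0 lower, ELF4 (adjusted p = 0.0102) and LUX (0.82 ± 0.18, adjusted p = 0.0481), both parts of the evening complex. ELF4 had 47.6 and 37.4 CPM in ipdc roots and 10.9 and 15.3 CPM in saline roots at 24 h. Of 4 morning clock genes 0 were called by edgeR, DESeq2 or limma-voom, and 0 had an unadjusted p under 0.05. The morning gene RVE8 had 20 and 5.04 CPM in ipdc roots and 5.86 and 8.39 CPM in saline roots at 24 h. Without the first ipdc library of 24 h log2 fold changes were 1.46 for ELF4 and 0.63 for LUX. Without the second they were 1.86 and 0.94. Of 9 tested shoot markers outside photosynthesis 1 was called higher, YAB3 (4.85 ± 0.99, adjusted p = 0.0416), a leaf polarity gene, with 8.33 and 13.3 CPM in ipdc roots, 0.617 and 1.16 CPM in Az39 roots and 0.566 and 0.179 CPM in saline roots. The 9 had a median log2 fold change of 3.18 and all were above 0. The log2 fold change of YAB3 was 5.09 without the first ipdc library and 4.48 without the second. Of 15 tested seed markers 1 was called higher, the late embryogenesis gene EM6 (7.19 ± 1.56, adjusted p = 0.0495), while 14 of the 15 were above 0 and their median was 6.06. The seed marker median was 2.93 without the first ipdc library, with EM6 at 4.42, and 6.97 without the second, with EM6 at 8.08. Of 16 root markers 0 were called by edgeR or limma-voom and 1, lower, by DESeq2, 1 had an unadjusted p under 0.05, and the median was 0.04. Without the second ipdc library 1, SHR, was called lower by edgeR. Without either saline library of 24 h none of these lists had a call.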
